A study of Mus musculus with 8 samples.

Results

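The members are the genes of the sialyltransferases, fucosyltransferases, polypeptide N-acetylgalactosaminyltransferases, galactosyltransferases, N-acetylglucosaminyltransferases and carbohydrate sulfotransferases on a mouse bead array. They were chosen by symbol, as every probe whose gene symbol begins with St3gal, St6gal, St8sia, Galnt, B4galt, B3galt, B3gnt, Fut, Gcnt, Mgat or Chst and goes on with a number (or nac and a number). This gave 123 of the 25697 probes, for 84 of 16593 named genes. A probe counted as above background on an array where its detection p was under 0.05. Of these 84 genes, 40 had such a probe on 2 or more of the 8 arrays and were tested. Another 8 genes had probes above background on no more than 1 array each (for Mgat5 different probes on different arrays), and 36 had none on any.

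RNA came from CD4 T cells of the spleen and of the small intestine, called gut here, of C57B6 mice of both sexes aged 7 to 14 weeks. All mice carried a GFP reporter of Foxp3, the transcription factor of regulatory T cells. The sort gate was live TCRb+CD4+CD8-B220-, and within it GFP+ cells are called Treg and GFP- cells, the conventional T cells, Tcon. Control mice had the genotype MHCII+/-, FOXP3GFP, and the other group, called K14, had the genotype K14Aβb, FOXP3GFP and makes MHC class II only in the thymus, per the study's design text. K14 is the keratin promoter that drives the class II transgene. There was 1 array, of cells pooled from several mice, for every combination of tissue, cell type and genotype, 8 in all and without repeats, and this number limits the precision. Each difference below is the mean of 4 matched pairs of arrays, and its error is limma's moderated standard error (SE) over them. The p-values therefore cover the spread between pools and not that between single mice.

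Glycosyltransferases of the endoplasmic reticulum and Golgi build the sugar chains of cell surface proteins and lipids 1 sugar at a time, each from a nucleotide-activated donor. Sialic acid and fucose are often added last and cap the chain, while sulfotransferases add sulfate to finished or growing chains. On T cells these chains carry ligands of selectins, which slow cells on vessel walls, and ligands of galectins and other lectins, and they change with activation.

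Between 8822 and 9677 probes were above background per array, among them 42 to 49 of the 123 member probes, and median signals ran from 211.4 to 250.2 units. T cell markers were above background on all arrays for 7 of 7 genes with a probe. Of the 10 Treg markers, 9 had higher means in Treg, and the median over the list was 2.71 log2. Il2ra, Nrp1, Tnfrsf18 and Tnfrsf9, 4 of them, passed the test. The Foxp3 probe read low on all 8 arrays (log2 6.76 to 7.08) and did not separate the sorts. H2-Ab1, the class II gene targeted in the K14 line, was higher on the arrays labelled K14 in 3 of 4 pairs, by 1.12 ± 0.43 log2 (limma adjusted p = 0.602). On the control-labelled arrays H2-Ab1 read 11.63 in spleen Tcon, 11.02 in spleen Treg, 12.25 in gut Tcon and 10.995 in gut Treg. On the arrays labelled K14 H2-Ab1 read 13.20, 13.38, 12.87 and 10.94 in the same order. Which part of H2-Ab1 its probes cover is not known here, so genotypes below are those of the labels. The array of gut Tcon labelled control stood apart in exocrine pancreas markers, with 18 of 18 above background and a summed signal of 79918 units. The other 7 arrays had 2 to 6 of these markers above background and sums of 1092 to 3526 units.

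The filter kept 40 of the 84 genes, a similar share to the 7916 of 16593 named genes kept over the whole table. The counts by family follow and were not tested against that share. Sialyltransferases contributed 11 of 20 genes, carbohydrate sulfotransferases 7 of 13, polypeptide N-acetylgalactosaminyltransferases 5 of 13 and fucosyltransferases 4 of 8. The beta-1,4-galactosyltransferases contributed 4 of 6 genes, the B3galt family 3 of 5, the B3gnt family 2 of 6, the Gcnt family 2 of 3 and the Mgat family 2 of 10. For 21 of the 40 genes the probe used was above background on all 8 arrays. Those on no array included Fut1, Fut2 and Fut9 of the fucosyltransferases, St6gal2 and St6galnac1 of the sialyltransferases, and Chst4, Chst5 and Chst1 of the sulfotransferases. Where a gene had several probes, the brightest kept one was used. A probe not above background gives no measure of how little RNA there was, and levels of different probes are not set against each other.

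**Figure D1:**
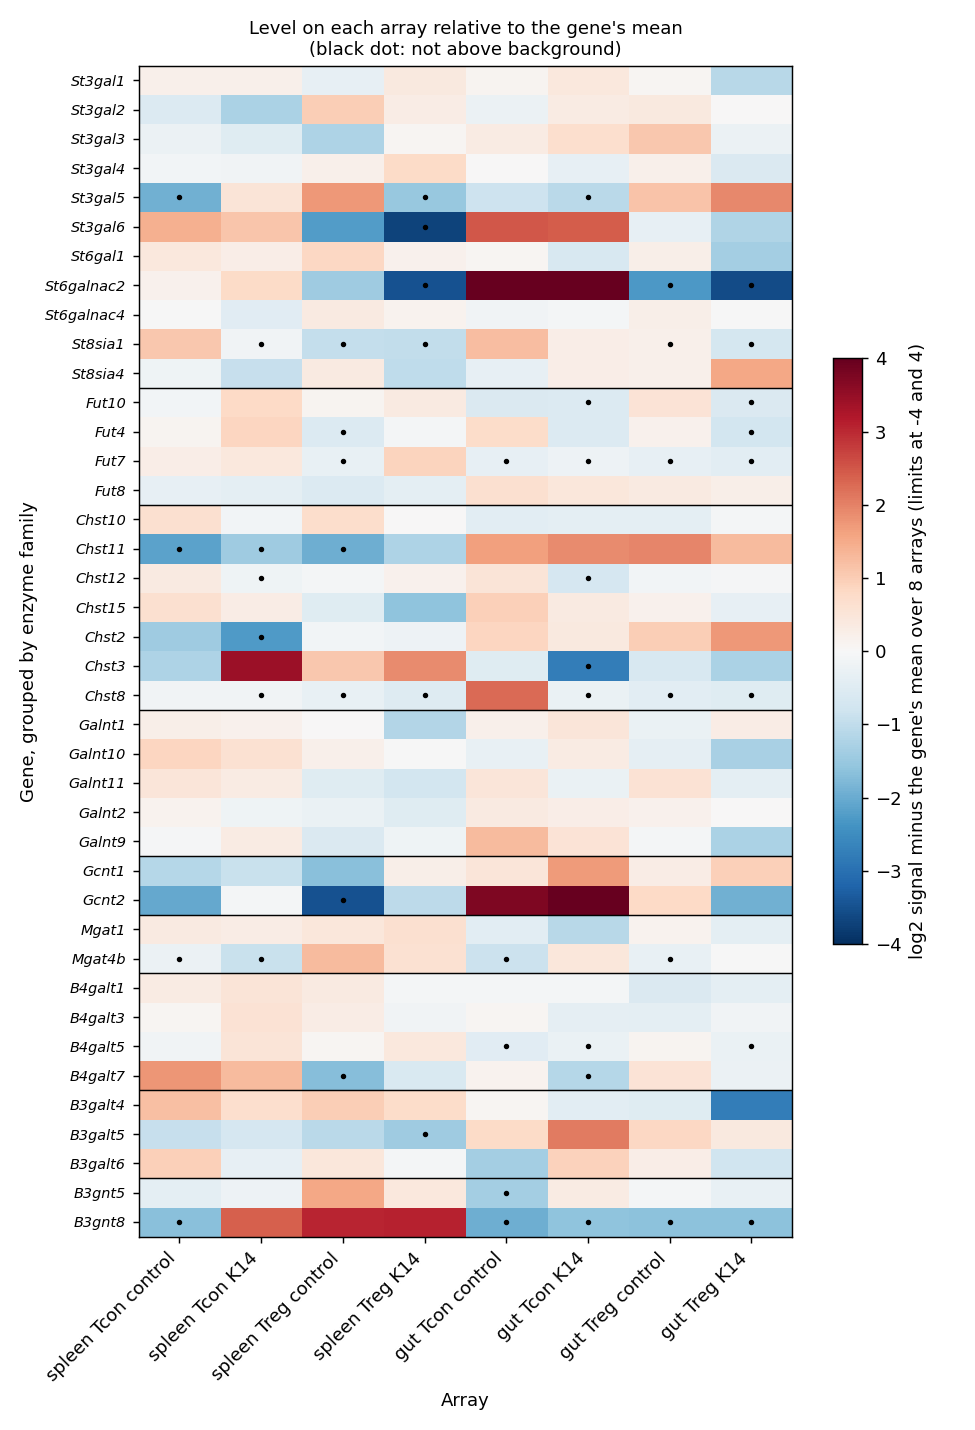
Heat map of the 40 tested genes (rows, grouped by enzyme family) on the 8 arrays (columns). Colour gives the normalized log2 signal minus the gene's mean over the 8 arrays, with black dots where the probe was not above background, and St3gal6, St6galnac2 and Gcnt2 show the highest values on both gut Tcon arrays.

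The comparison of Treg with Tcon asked which of these enzymes differ between regulatory and conventional cells whatever the tissue and genotype. St3gal6, a sialyltransferase that caps galactose of N-acetyllactosamine and contributes to selectin ligands, fell by 3.73 ± 0.35 log2 in Treg (SE, 4 pairs, limma adjusted p = 0.0405), which is 13.3-fold. On the control-labelled arrays St3gal6 read 11.48 in spleen Tcon, 7.82 in spleen Treg, 12.55 in gut Tcon and 9.75 in gut Treg, on the log2 scale. On the arrays labelled K14 it read 11.18, 6.35, 12.50 and 8.87 in the same order. All 4 Tcon arrays were above all 4 Treg arrays, and only the spleen Treg array labelled K14 was not above background. The 4 pair differences ran from -2.80 in the gut pair labelled control to -4.83 in the spleen pair labelled K14. In bulk RNA, fewer cells with the transcript and less of it per cell cannot be told apart. St3gal6 has 1 probe here.

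St3gal6 was the only one of the 40 members past the test, against 56 of 7916 genes (0.707%) over the whole table, of which 44 were higher and 12 lower in Treg. At an unadjusted p under 0.05 there were 9 members, 1 higher and 8 lower, or 22.5% of the 40 against 15.3% of all genes. In 4 of 4 pairs 15 members kept 1 direction, 4 higher and 11 lower, or 37.5% of the 40 against 25.5% of all genes. The median difference over the 40 members was -0.12 log2 and that over all genes -0.03, and 25 of the 40 had lower means in Treg. With the gut control pair left out, whose Tcon array had the pancreas markers, the St3gal6 difference was -4.04. With any 1 pair left out the difference was -3.36 to -4.04 (adjusted p 0.110 to 0.203), and at the 2 residual degrees of freedom then left no gene of the whole table passed, so these fits say nothing on the call itself.

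The promoter stretches of St3gal6 are shown because it is the member that passed the test between the sorts. RefSeq (GRCm38.p6) gives them for a pair of start sites on the minus strand, each from 250 bases before to 50 after the start, and 33 of the 40 members matched an entry. Fut10, Galnt1, Galnt2, Mgat4b, St3gal1, St3gal2 and St6galnac2 are named only. Capitals mark matches, on either strand, to a RUNX motif (TGTGGT), a TCF/LEF motif (CTTTGA), a STAT motif (TTCNNNGAA) or a GC box (GGGCGG), which may overlap.
St3gal6, chr16:58524204-58524503, minus strand: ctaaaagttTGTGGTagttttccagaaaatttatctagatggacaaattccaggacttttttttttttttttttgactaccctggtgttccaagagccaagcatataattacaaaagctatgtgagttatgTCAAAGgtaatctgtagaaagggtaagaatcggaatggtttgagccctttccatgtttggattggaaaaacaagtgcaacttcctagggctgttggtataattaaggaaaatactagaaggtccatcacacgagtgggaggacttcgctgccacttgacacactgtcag
St3gal6, chr16:58523377-58523676, minus strand: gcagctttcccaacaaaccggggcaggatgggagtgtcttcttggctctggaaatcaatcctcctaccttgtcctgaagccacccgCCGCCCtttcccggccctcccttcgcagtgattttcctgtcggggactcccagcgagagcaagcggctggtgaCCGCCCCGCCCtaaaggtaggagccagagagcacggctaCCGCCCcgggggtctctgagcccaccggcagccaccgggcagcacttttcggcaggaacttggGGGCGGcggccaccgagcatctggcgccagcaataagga
The first stretch held 1 RUNX and 1 TCF/LEF match and no GC box, and the second held 5 GC boxes and none of the other motifs. Among 32851 promoters of this length, 16.8% held the RUNX motif, 16% the TCF/LEF motif, 8.30% the STAT motif and 35.7% the GC box. Among the 51 promoters of the tested members the shares were 11.8%, 15.7%, 5.88% and 56.9% in that order. The members had passed the detection filter and the larger set had not been filtered, so the shares are of unlike sets. A match describes letters only and names no site in use.

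The largest Treg difference among the members was that of St6galnac2, which adds sialic acid to the first sugar of O-linked chains. St6galnac2 read 8.97 in spleen Tcon, 7.40 in spleen Treg, 13.23 in gut Tcon and 6.53 in gut Treg on the control-labelled arrays, and 9.58, 5.35, 14.21 and 5.25 on those labelled K14. Both gut Tcon arrays stood far above the other 6, and St6galnac2 was not above background on either gut Treg array or on the spleen Treg array labelled K14. The difference, -5.37 ± 1.22 log2, had 1 direction in 4 of 4 pairs with no overlap of the groups, but it did not pass the test (limma adjusted p = 0.161). Within the gut the bright Tcon arrays bound it at at least 129-fold. Such a bound sets the bright mean against the higher of the lowest signal above background and the probe's own signal on each dim array.

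Gcnt2, which makes the branches of poly-N-acetyllactosamine known as the I antigen, had a related distribution. Gcnt2 read 7.12 in spleen Tcon, 5.68 in spleen Treg, 12.89 in gut Tcon and 9.96 in gut Treg on the control-labelled arrays, and 9.10, 8.12, 13.23 and 7.26 on those labelled K14. Only on spleen Treg labelled control was Gcnt2 not above background. Gcnt2 too was highest on both gut Tcon arrays, and it was lower in Treg in 4 of 4 pairs, by -2.83 ± 0.87 log2 (limma adjusted p = 0.231). Only 1 of the 4 Gcnt2 probes was above background on any array, so the other probes give no second reading of it. The groups overlapped, since gut Treg labelled control lay above both spleen Tcon arrays. Of the intestinal epithelial markers with a probe, Cdx2, Tff3, Cdh1 and Cldn7 were also highest on both gut Tcon arrays, and the others were not. Cdx2 read 8.72 and 8.69 there, control-labelled array first, and 5.56 to 6.68 on the other arrays. Tff3 read 7.78 and 7.39 there and 5.44 to 5.99 elsewhere. Krt8, another epithelial marker, was high in gut Treg as well (10.63 and 9.44), and Reg3b read 10.12 to 11.76 over the gut arrays. Krt20 and Vil1 read 8.42 and 8.52 on gut Tcon labelled control but 5.86 and 5.98 on gut Tcon labelled K14. The part of epithelial RNA in the St6galnac2 and Gcnt2 values was not tested.

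**Figure D2:**
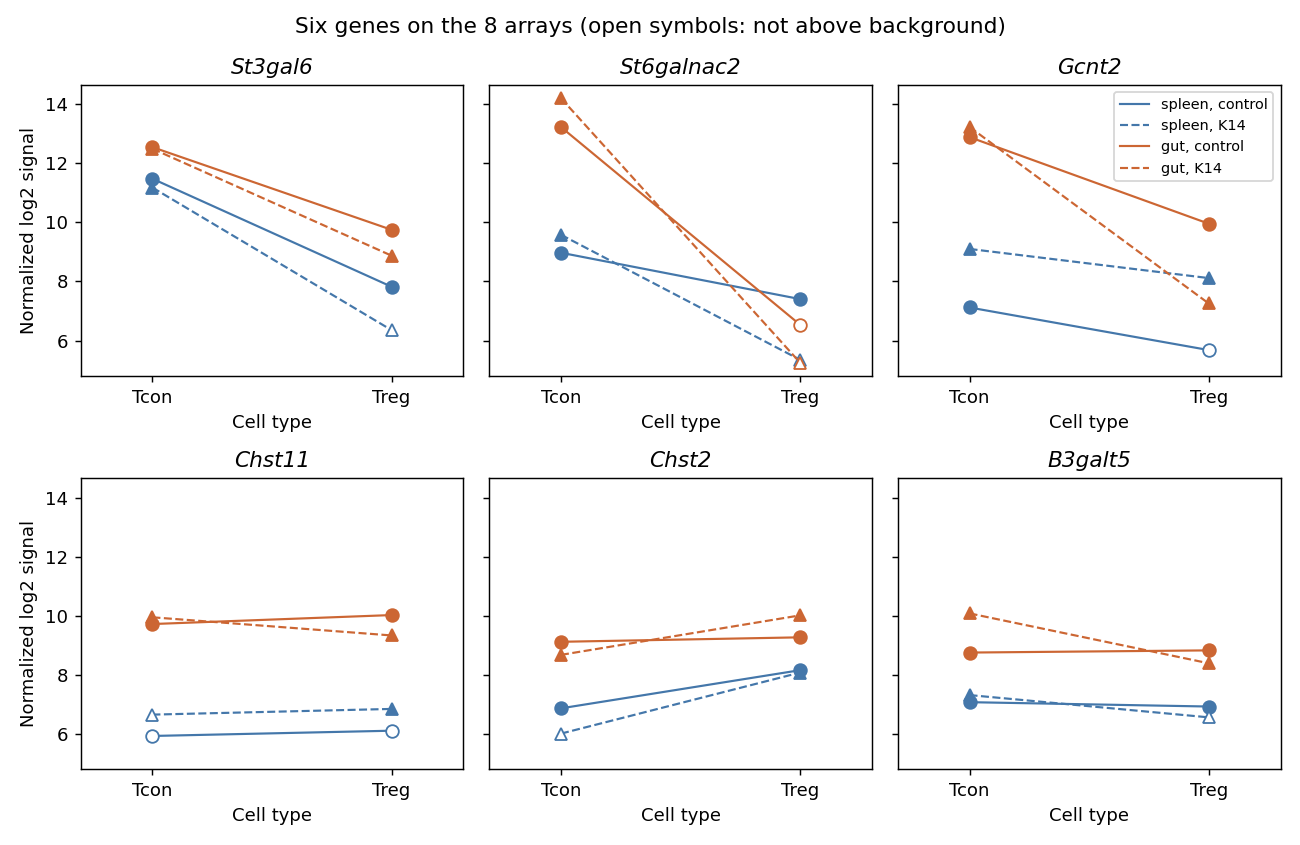
Normalized log2 signal (vertical axis) of 6 genes in Tcon and Treg (horizontal axis), each line joining the arrays of 1 tissue and 1 genotype label, with open symbols where the probe was not above background. St3gal6 falls from Tcon to Treg along all 4 lines, St6galnac2 and Gcnt2 are highest on the gut Tcon arrays, and for Chst11, Chst2 and B3galt5 the gut arrays lie above the spleen arrays.

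The other named members of this comparison differed by about 1 log2 unit, and none passed the test. St8sia1, the synthase of ganglioside GD3, read 7.56 and 6.35 in spleen Tcon and 7.71 and 6.74 in gut Tcon (control-labelled array first). On the Treg arrays St8sia1 read 5.55 and 5.51 in spleen and 6.69 and 5.80 in gut and was above background on none. Spleen Tcon labelled K14 was not above background either, so no fold is given for the difference (limma adjusted p = 0.138). Chst15, which adds a second sulfate to chondroitin, read 9.99 and 9.62 in spleen Tcon, 10.30 and 9.70 in gut Tcon, 8.86 and 7.72 in spleen Treg and 9.50 and 8.997 in gut Treg. The lowest Tcon value of Chst15 was above the highest Treg value, and the difference was -1.13 ± 0.25 log2 (adjusted p = 0.152). Chst2, which sulfates N-acetylglucosamine of L-selectin ligands in lymph node vessels, was the one named member with a higher mean in Treg in 4 of 4 pairs, by 1.21 ± 0.33 log2 (adjusted p = 0.204).

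By role, the polypeptide N-acetylgalactosaminyltransferases, which start O-linked chains, had lower means in Treg for 5 of 5 genes, from -0.29 to -1.05 log2 with none past the test. Sialyltransferases ran from -5.37 to 1.64 log2, 5 with a higher and 6 with a lower mean, and St3gal6 alone passed. Sulfotransferases ran from -1.13 to 1.21, with 4 higher and 3 lower (3 and 4 with the authors' values, no background correction or an offset of 50), and fucosyltransferases from -0.59 to 0.20, with 1 higher and 3 lower. Both Mgat genes and both B3gnt genes had higher means in Treg, and 3 of 3 B3galt genes and both Gcnt genes lower means, none past the test.

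The enzymes of selectin ligand synthesis fixed for description did not move together. Fut7, which adds the fucose that completes sialyl Lewis X, read 7.13 and 7.26 in spleen Tcon and 6.54 and 7.75 in spleen Treg, control-labelled array first. On the gut arrays Fut7 read 6.44 to 6.65 and was not above background, and neither was it on spleen Treg labelled control. Fut4, a related fucosyltransferase, was lower in Treg in 4 of 4 pairs by -0.59 ± 0.18 log2 (limma adjusted p = 0.231), within levels of 6.71 to 8.12 in Tcon and 6.52 to 7.40 in Treg. On spleen Treg labelled control and gut Treg labelled K14 Fut4 was not above background. St3gal4, another sialyltransferase of these ligands, differed by 0.29 ± 0.23 log2 between Treg and Tcon and read 8.05 to 9.41 over the 8 arrays. B4galt1, a galactosyltransferase of N-acetyllactosamine, read 9.34 to 10.43 and differed by -0.34 ± 0.17.

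St6gal1, which caps N-linked chains with sialic acid, and St3gal1, which caps the simple core of O-linked chains, showed no difference past the test either. St6gal1 read 13.65 to 15.82 over the 8 arrays, and its signal on spleen Treg labelled control, 60818 units, came close to the highest on that array, 71460. The Treg difference of St6gal1 was -0.07 ± 0.23 log2 and that of St3gal1, which read 9.22 to 10.72, was -0.48 ± 0.32.

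NK markers moved with the same comparison. Of 6 with a probe, 3 were tested and all 3 had lower means in Treg, with Klrd1 past the test at -4.15 ± 0.49 log2 (limma adjusted p = 0.0495), while Ncr1 and Eomes were above background on no array. Summed NK marker signals were 5732 to 8215 units on the Tcon arrays and 2619 to 3927 on the Treg arrays, and their part in the St3gal6 difference was not tested. Other marker lists also had mostly lower means in Treg, with no gene past the test. Pancreas markers had lower means in Treg for 9 of 9 tested, with a median of -1.23 log2 and sums of 1092 to 79918 units on the Tcon arrays and 1290 to 3506 on the Treg arrays. Myeloid markers had lower means in Treg for 7 of 8 tested, with a median of -0.62 log2 and overlapping sums of 7717 to 20985 units in Tcon and 7583 to 19753 in Treg. B and plasma cell markers had lower means for 4 of 6 tested, and epithelial markers for 8 of 11. The part of these lists in the members' values was not tested either, beyond the fit without the gut control pair given above.

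**Figure D3:**
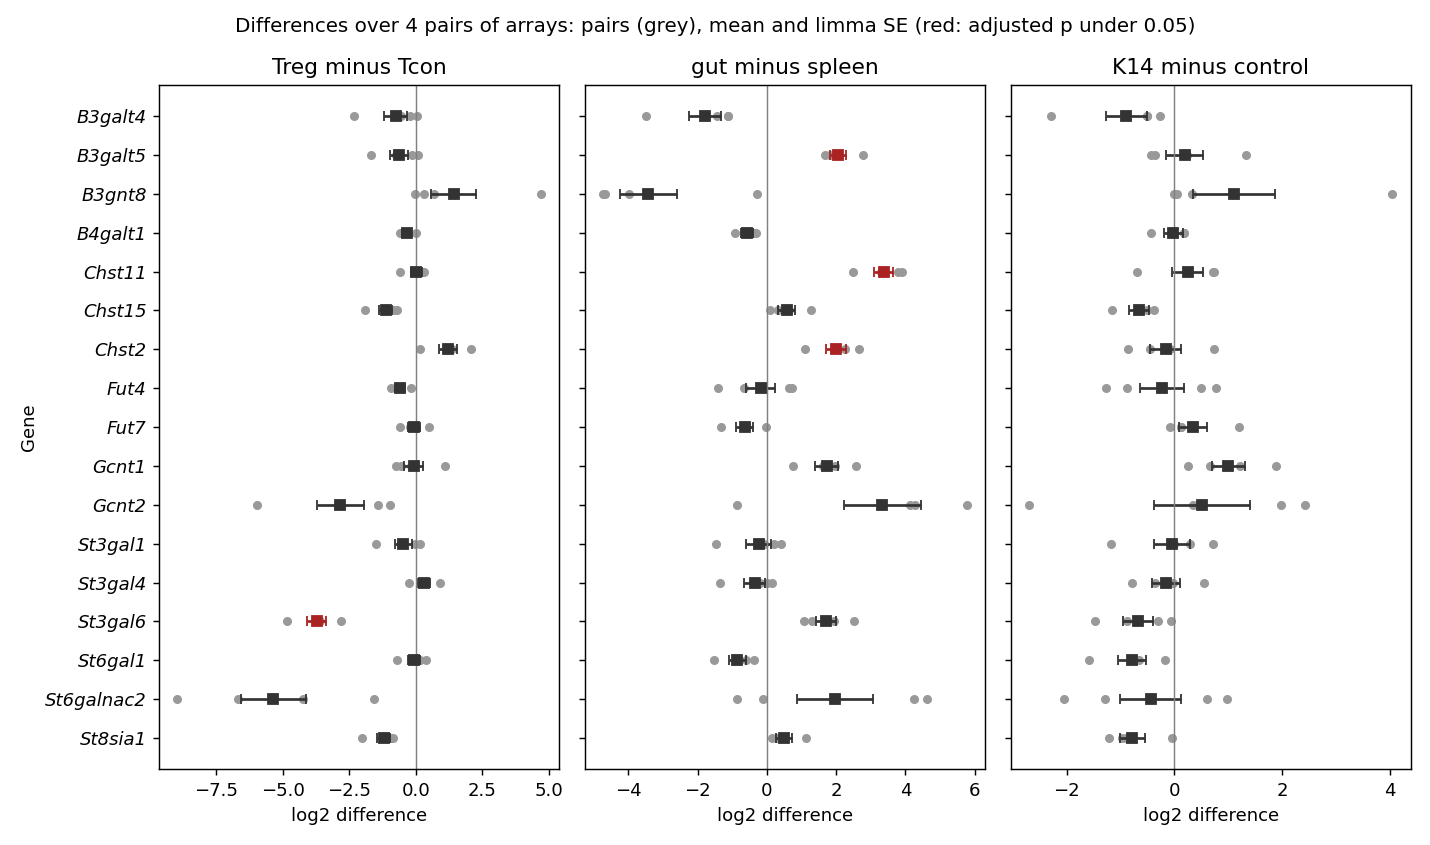
Log2 differences (horizontal axes) of the 17 named genes (rows) for Treg minus Tcon, gut minus spleen and K14 minus control. Grey points are the 4 pairs, squares the mean with limma's SE, and red squares mark adjusted p under 0.05, reached by St3gal6 in the first panel and by B3galt5, Chst11 and Chst2 in the second.

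The comparison of gut with spleen asked which enzymes differ between the tissues in both cell types and under both genotype labels. Chst11, which sulfates chondroitin, rose in gut by 3.37 ± 0.28 log2 (SE, 4 pairs, limma adjusted p = 0.0164), B3galt5, which makes type 1 chains, by 2.05 ± 0.23 (adjusted p = 0.0298), and Chst2 by 1.99 ± 0.29 (adjusted p = 0.0461). For B3galt5 and Chst2 these are 4.13-fold and 3.98-fold, and for Chst11, above background on 1 of the 4 spleen arrays, no fold is given. Each was higher in 4 of 4 pairs, and for each the 4 gut arrays lay above the 4 spleen arrays.

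Chst11 read 5.93 in Tcon and 6.10 in Treg of spleen on the control-labelled arrays and 6.65 and 6.84 on those labelled K14, and only the last of these 4 was above background. In gut Chst11 read 9.72 and 10.02 on the control-labelled arrays and 9.95 and 9.33 on those labelled K14. In each tissue the Tcon and Treg values of Chst11 lay close together, far from the gap between the tissues.
B3galt5 read 7.07, 6.92, 7.31 and 6.56 in spleen (Tcon and Treg labelled control, then Tcon and Treg labelled K14) and 8.75, 8.83, 10.08 and 8.39 in gut. Its highest value was that of gut Tcon labelled K14, and the lowest spleen value was not above background. Chst2 read 6.86, 8.16, 6.01 and 8.07 in spleen and 9.12, 9.27, 8.67 and 10.01 in gut in that order. In spleen both Treg arrays were above both Tcon arrays for Chst2, and the lowest of all, spleen Tcon labelled K14, was not above background. Chst11, B3galt5 and Chst2 have 1 probe each.

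The promoter stretches of both sulfotransferases that rose in gut, with the same marks, are given for comparison with those of St3gal6.
Chst11, chr10:82985247-82985546, plus strand: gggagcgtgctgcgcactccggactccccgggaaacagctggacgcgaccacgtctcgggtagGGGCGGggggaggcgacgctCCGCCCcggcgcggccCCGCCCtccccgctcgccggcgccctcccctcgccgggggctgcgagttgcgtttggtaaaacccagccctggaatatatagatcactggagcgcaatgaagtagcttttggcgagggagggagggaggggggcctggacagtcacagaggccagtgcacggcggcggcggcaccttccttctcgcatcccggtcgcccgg
Chst2, chr9:95407221-95407520, minus strand: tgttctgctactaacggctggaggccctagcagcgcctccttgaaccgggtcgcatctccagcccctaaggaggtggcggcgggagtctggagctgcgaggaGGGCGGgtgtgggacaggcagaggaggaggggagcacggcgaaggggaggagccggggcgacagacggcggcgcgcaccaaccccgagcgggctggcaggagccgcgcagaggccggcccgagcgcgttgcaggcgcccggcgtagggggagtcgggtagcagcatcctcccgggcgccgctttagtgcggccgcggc
The Chst11 stretch held 3 GC boxes and the Chst2 stretch 1, and neither held a RUNX, TCF/LEF or STAT match.

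These 3 of 40 members, all higher in gut, compare with 188 of 7916 genes (2.37%) over the whole table, 128 higher and 60 lower. At an unadjusted p under 0.05 there were 16 members, 8 higher and 8 lower, or 40% against 24.1% of all genes. In 4 of 4 pairs 17 members kept 1 direction, 9 higher and 8 lower, or 42.5% of the 40 against 34.3% of all genes. The median difference was -0.08 log2 over the members and -0.07 over all genes, and 21 of the 40 had lower means in gut. Without the Tcon pair labelled control the differences were 3.23 for Chst11, 2.17 for B3galt5 and 1.91 for Chst2. With any 1 pair left out none of the 3 passed, except Chst11 without the Treg pair labelled K14.

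Epithelial markers moved with tissue as well. Of 19 with a probe, 11 were tested, 8 had higher means in gut with a median of 1.12 log2, and Krt8 and Reg3b passed. Krt8 differed by 3.33 ± 0.48 log2 (limma adjusted p = 0.0461), and Reg3b (adjusted p = 0.00898) was above background on the 4 gut arrays and on no spleen array. The gut arrays had 7 to 14 of these markers above background with sums of 9615 to 25725 units, and the spleen arrays 5 to 7 with sums of 6374 to 34024. The highest spleen sums, 31706 and 34024 units in Tcon and Treg labelled K14, were mostly Lyz1, which read 14.85 and 14.97 there. No other marker of the list read above 10.30 on those arrays. The epithelial genes Fabp1, Fabp2 and Reg3g were above background on no array. Krt8 read 11.48, 10.63, 9.60 and 9.44 in gut (Tcon and Treg labelled control, then Tcon and Treg labelled K14), where Chst11 read 9.72, 10.02, 9.95 and 9.33. The part of epithelial RNA in the differences of Chst11, B3galt5 and Chst2 was not tested. Pancreas markers had higher means in gut for 9 of 9 tested, with a median of 1.96 log2 and none past the test, and the pair that holds most of their signal is the one left out above. Myeloid markers had lower means in gut for 8 of 8 tested, of which S100a9 passed (adjusted p = 0.0271), being above background on the 4 spleen arrays and on no gut array. B and plasma cell markers had lower means in gut for 5 of 6 tested, with a median of -0.74 log2 and none past the test. Of the CD8 T cell markers, Cd8a was above background on no array, while Cd8b1 was on all 8 and read 9.80 to 13.38. Cd8b1 was lower in gut in 4 of 4 pairs by -1.88 ± 0.41 log2 (limma adjusted p = 0.0829).

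Several members lay close to the threshold without passing it. St3gal6 was higher in gut by 1.71 ± 0.29 log2 (limma adjusted p = 0.0537), on top of its difference between the sorts, and under 5 of the other processing settings it passed. Fut8, which adds the core fucose of N-linked chains, read 10.34 to 10.55 on the 4 spleen arrays and 11.11 to 11.54 on the 4 gut arrays, a difference of 0.85 ± 0.15 (adjusted p = 0.0603). Gcnt1, which makes the branched core of O-linked chains that carries selectin ligands, read 7.54 and 7.00 in spleen Tcon and Treg labelled control and 7.79 and 8.89 in those labelled K14. In gut Gcnt1 read 9.15, 8.97, 10.37 and 9.63 in the same order, all above the spleen values, with a difference of 1.73 ± 0.33 (adjusted p = 0.0643). Of the 3 Gcnt1 probes the other pair was above background on no more than 1 array.

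B3gnt8, which extends poly-N-acetyllactosamine, and B3galt4, a galactosyltransferase of ganglioside synthesis, had the lowest gut values against spleen among members with 1 direction. B3gnt8 read 10.15 in spleen Treg labelled control and 9.50 and 10.19 in spleen Tcon and Treg labelled K14. On spleen Tcon labelled control it read 5.45 and on the gut arrays 5.17 to 5.51, none of them above background. No fold is therefore given for its difference (limma adjusted p = 0.0938). In the Tcon pair labelled control both B3gnt8 readings were at background, so the direction of that pair carries no weight. The other B3gnt8 probe was above background on no array. It read 5.60 to 6.12 over the 8 arrays and did not share the high spleen values. B3galt4 read 10.74 to 11.25 in spleen and 10.14, 9.59, 9.63 and 7.29 in gut (Tcon and Treg labelled control, then labelled K14), a difference of -1.79 ± 0.46 (adjusted p = 0.106) that was lowest in gut Treg labelled K14. Both B3galt4 probes gave this order, the other reading 10.49 to 11.34 in spleen and 9.88, 9.08, 9.48 and 7.20 in gut. Fut7, not above background in gut or on spleen Treg labelled control, had a lower mean in gut (adjusted p = 0.196), and no fold is given.

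By role, the N-acetylglucosaminyltransferases split. Both Gcnt genes had higher means in gut, and both Mgat genes and both B3gnt genes lower means. All 4 beta-1,4-galactosyltransferases had lower means, from -0.35 to -0.57 log2 (3 of 4 with the mean of a gene's probes), while 4 of 5 polypeptide N-acetylgalactosaminyltransferases had higher means. Galnt10, the exception, was lower in gut in 4 of 4 pairs by -0.82 ± 0.23 log2 (limma adjusted p = 0.120). It passed with the mean of a gene's probes. Sulfotransferases ran from -2.57 to 3.37, 4 higher and 3 lower, with 2 of the higher ones past the test. Sialyltransferases ran from -0.85 to 1.98, 7 higher and 4 lower, none past the test.

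Whether the Treg difference itself depends on the tissue was asked with a test of the difference between differences. No member passed it and no gene of the table did (0%). At an unadjusted p under 0.05 there were 7 members, or 17.5% of the 40, against 7.28% of all genes. St6galnac2 was at least 129-fold lower in Treg in gut, where neither Treg array was above background, and its means differed by -2.90 log2 in spleen, where 1 of 2 Treg arrays was (limma adjusted p = 0.532 for the difference between tissues). For Gcnt2 the Treg difference was -4.45 in gut and -1.21 in spleen, where Treg labelled control was not above background (adjusted p = 0.663). B4galt7, which builds the linker of glycosaminoglycan chains, was picked with its values in view for the lowest p of the members. Its fitted Treg difference was 0.67 log2 in gut and -2.67 in spleen (limma adjusted p = 0.442), and both values include an array that was not above background, spleen Treg labelled control and gut Tcon labelled K14. B4galt7 read 9.38 and 5.91 in spleen Tcon and Treg labelled control, 8.89 and 7.03 in those labelled K14, and 6.48 to 8.19 in gut.

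**Figure D4:**
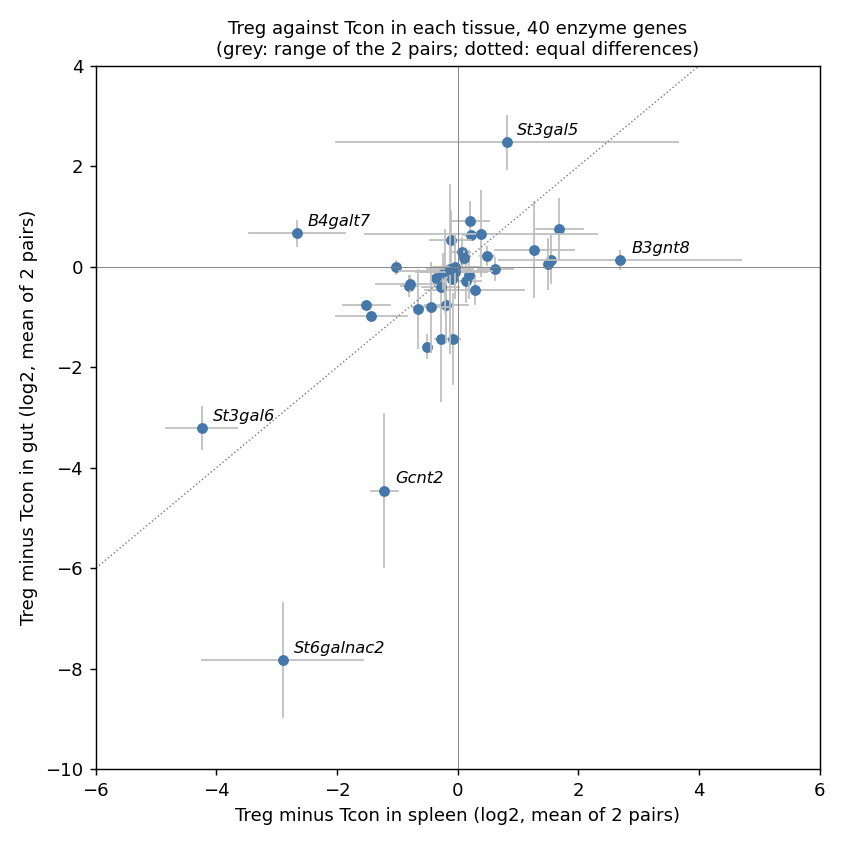
Treg minus Tcon in spleen (horizontal axis, log2, mean of 2 pairs) against the same in gut (vertical axis) for the 40 genes, with grey lines spanning the 2 pairs and a dotted line of equal differences. St3gal6 lies at -4.25 in spleen and -3.21 in gut, St6galnac2 and Gcnt2 lie well below the dotted line, and B4galt7 lies above it.

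The comparison of K14 with control asked whether cells of mice that lack MHC class II outside the thymus differ in these RNAs. No member passed the test by limma, and no gene of the table did (0%). At an unadjusted p under 0.05 there were 4 members, 1 higher and 3 lower, or 10% against 8.01% of all genes. In 4 of 4 pairs 8 members kept 1 direction, 1 higher and 7 lower on the arrays labelled K14. This is 20% of the 40 against 16.5% of all genes. The median difference was -0.15 log2 over the 40 members and -0.01 over all genes, and 28 of the 40 had lower means on the arrays labelled K14.

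Gcnt1 was the member with higher values on the array labelled K14 in 4 of 4 pairs, by 1.002 ± 0.304 log2 (limma adjusted p = 0.53), and the pair differences ran from 0.25 in spleen Tcon to 1.89 in spleen Treg. The members lower in 4 of 4 pairs included B3galt4 at -0.89 ± 0.38, St6gal1 at -0.78 ± 0.26, St8sia1 at -0.78 ± 0.24, St3gal6 at -0.68 ± 0.28 and Chst15 at -0.66 ± 0.19, with adjusted p from 0.53 to 0.640. For each of these 6 genes the values on the arrays of both labels overlapped. St8sia1 was above background on 1 of the 4 arrays labelled K14 and on 2 of the 4 control-labelled arrays. None of these was a Treg array, so its Treg pairs compare readings at background and no fold is given. St6gal1 read 15.44, 15.82, 15.07 and 15.22 on the control-labelled arrays (spleen Tcon, spleen Treg, gut Tcon, gut Treg) and 15.27, 15.17, 14.35 and 13.65 on those labelled K14. Sialyltransferases had lower means on the arrays labelled K14 for 10 of 11 genes (8 of 11 with the mean of a gene's probes, 9 of 11 with the authors' values or no background correction, 11 of 11 with median centring) and polypeptide N-acetylgalactosaminyltransferases for 5 of 5, none past the test. By pair, the median over the members was 0.02 in gut Tcon, -0.06 in spleen Tcon, -0.47 in gut Treg and -0.20 in spleen Treg.

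Myeloid markers were higher on the arrays labelled K14 for 8 of 8 tested, with a median of 1.68 log2 and none past the test. Their sums were 10062 to 20985 units on the arrays labelled K14 and 7583 to 9436 on the control-labelled arrays, and Itgax and Clec9a were above background on no array. B and plasma cell markers had higher means on the arrays labelled K14 for 5 of 6 tested, with a median of 0.66 log2, and Cd79b, which signals for B cell antigen receptors, was higher in 4 of 4 pairs by 1.35 ± 0.23 (limma adjusted p = 0.332). Their sums were 6112 to 19110 units on the arrays labelled K14 and 2824 to 6179 on the control-labelled arrays, and Pax5 and Jchain were above background on no array. The globin gene Hba-a1 was higher in 4 of 4 pairs by 2.95 ± 0.40 (adjusted p = 0.242). Pancreas markers had lower means for 9 of 9 tested, with a median of -0.99 log2, none past the test. The part of these lists in the values of the members was not tested.

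The tests of the difference between genotypes gave no member past the threshold either. For the Treg difference compared between labels no gene of the table passed (0%). At an unadjusted p under 0.05 it had 2 members, or 5% of the 40, against 4.69% of all genes. For the gut difference compared between labels no gene passed (0%). At an unadjusted p under 0.05 it had 4 members, or 10% of the 40, against 5.5% of all genes. Those 4 were Fut4, St8sia4, Chst3 and Chst10, with limma adjusted p from 0.818 to 0.9. The Treg difference of St3gal6 was -4.23 under the K14 label and -3.23 under the control label, a difference of -0.996 ± 0.602 log2 (adjusted p = 0.999).

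The other genes of the pathway, from lists of donors, further Golgi enzymes, sialidases, carriers and galectins, gave no call in any of the 3 main comparisons. Of 12 tested genes of sugar donor supply and transport, 10 had higher means in Treg, 3 in gut and 6 on the arrays labelled K14. Slc35c1, the GDP-fucose transporter, read 13.24 to 13.75 in spleen and 12.63 to 13.04 in gut, a difference of -0.70 ± 0.15 log2 (limma adjusted p = 0.0831), and Gmds, an enzyme of GDP-fucose synthesis, was higher in gut by 0.71 ± 0.19 (adjusted p = 0.113). Nans, which makes sialic acid, was higher in Treg in 4 of 4 pairs by 0.70 ± 0.35 (adjusted p = 0.411). Of 25 tested further enzymes, 9 had higher means in Treg and 12 in gut. B4galnt4, which adds N-acetylgalactosamine to N-acetylglucosamine, read 7.85 to 9.11 in spleen and 10.83 to 12.09 in gut, with a difference of 3.02 ± 0.48 (adjusted p = 0.0510) and no overlap.

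Among the same enzymes, Xylt2, which starts glycosaminoglycan chains, read 11.57, 10.74, 11.41 and 11.36 in Tcon (spleen labelled control and K14, then gut) and 9.81, 10.07, 9.62 and 9.40 in Treg. All Tcon values lay above all Treg values, and the difference was -1.54 ± 0.26 log2 (limma adjusted p = 0.100). Chsy1, which polymerises chondroitin, was lower in Treg in 4 of 4 pairs by -1.17 ± 0.40 (adjusted p = 0.277). B4galnt2, which adds N-acetylgalactosamine to sialylated chains, differed by 1.18 ± 0.69 between gut and spleen (adjusted p = 0.353) and was above background on 2 arrays. It read 8.36 and 8.05 on the gut Tcon arrays, control-labelled first, and 5.48 to 6.44 on the others.

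Of 4 tested genes of sialic acid removal and editing, Neu3, a sialidase of gangliosides, was higher in Treg in 4 of 4 pairs by 0.82 ± 0.16 log2 (limma adjusted p = 0.126). Of 5 tested selectins and carriers, Selplg, the main carrier of P-selectin ligands on T cells, read 15.14 to 15.61 over the 8 arrays, and Cd44, a carrier of E-selectin ligands, was higher in gut by 1.13 ± 0.36 (adjusted p = 0.146). Of 5 tested galectins, Lgals4, which also stands in the epithelial list, was higher in gut by 1.58 ± 0.37 (adjusted p = 0.0895), and Lgals3 was higher on the arrays labelled K14 in 4 of 4 pairs by 1.19 ± 0.24 (adjusted p = 0.437).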

How the data were processed

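Per the file headers, the deposited table gives a linear intensity and a detection p-value per probe for each array. The labels name biotin-labelled cRNA, and background correction or scaling of these intensities is not given in the sources used here. The authors' deposited log2 values kept the rank order of the intensities (Spearman 1) with medians of 8.28 to 8.30. Their normalization stays unknown, and they served as an alternative.

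In R 4.3.3 with limma 3.58.1, background was estimated from detection p (nec, normexp), 16 units were added as an offset, and quantile normalization preceded log2. Named probes with detection p under 0.05 on at least 2 of 8 arrays (10021) gave 7916 genes, the brightest probe standing for its gene. Gene names came from the platform's table, where 23978 of 25697 probes had 1 symbol. limma with the 4 matched pairs as blocks, from the labels, gave each main comparison (3 residual degrees of freedom, 2 for differences between differences), with Benjamini-Hochberg adjustment over all genes at 0.05. Only the limma fits and the adjustment were tried on simulated data, made from the normalized and filtered gene values, and the earlier steps were not.

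Members, lists and tests were chosen with earlier results of these data known. Genes described are those past a test, the 6 largest differences with 1 direction in 4 of 4 pairs per main comparison, and Fut7, Fut4, St3gal4, St3gal6, Gcnt1, B4galt1, St3gal1, St6gal1 and St8sia1. From each pathway list up to 4 genes with large differences were named. Selplg, B4galt7 and those of single families or marker lists were added after their values were seen. Alternatives covered normalization, background, offset, detection filter, probe choice, the block and each pair left out. No chip or batch is given in the files.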

Additional observations from a re-analysis of the deposited data

How the results depend on the processing

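For Treg against Tcon, 1 member passed under every setting that kept all pairs except without a detection filter, where 16593 genes were tested, 0 members passed and St3gal6 had an adjusted p of 0.0763. For gut against spleen, 5 members passed with the authors' log2 values (where B3galt5 had an adjusted p of 0.0533 and B3galt4, Fut8 and St3gal6 passed), 5 with no background correction, 5 with detection on at least 4 arrays and 6 in the additive fit with no replicate block. With a pair left out in turn, the members past the test were 0 for Treg against Tcon and 0 to 1 for gut against spleen, at 2 residual degrees of freedom, where few or no genes of the table passed. Chst2 missed the threshold without a detection filter (adjusted p = 0.0661). With the mean of a gene's detected probes Galnt10, lower in gut, passed beside B3galt5, Chst11 and Chst2. K14 against control gave 0 members under all settings tried, and no member past a test changed sign under any of them.

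Over all genes, the 56 calls for Treg against Tcon became 100 with the authors' values (63 higher, 37 lower), 106 with no background correction, 2 without the filter, 110 with no replicate block and 0 with any pair left out. The 188 calls for gut against spleen became 468 (242 higher, 226 lower) and 393 in the first and second of these, 288 with an offset of 50, 322 with detection on at least 4 arrays, 125 without the filter, 462 with no replicate block and 0 to 33 with a pair left out. Median centring put the all-gene median of K14 against control at -0.09 log2 and that of the gut difference between labels at 0.12. Signals near background limit Fut7, St8sia1, Fut4 in Treg, B3gnt8 in gut, Chst11 in spleen and St6galnac2 in gut Treg. St6gal1 lay near the top of the scale on 1 array.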

Other observations

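Chst3, St3gal5 and Chst8, which passed no test, had large values on single arrays and were picked with these values in view. Chst3, which sulfates chondroitin at another position than Chst11, read 11.71 on spleen Tcon labelled K14 and 7.06 on spleen Tcon labelled control, and its other probe read 11.68 and 7.37 there. The remaining Chst3 values were 9.36 and 10.17 in spleen Treg and 5.52 to 7.82 in gut. St3gal5, the synthase of ganglioside GM3, read 9.20 in spleen Treg labelled control, 7.99 in spleen Tcon labelled K14, and 8.60 and 9.40 in both gut Treg samples. On spleen Treg labelled K14 St3gal5 read 5.97 and was not above background, and the difference between the labels has no replicate. The other St3gal5 probe did not share these high values and was above background only on gut Tcon labelled control (6.67). It read 5.59 in spleen Treg labelled control, 5.62 in spleen Tcon labelled K14, and 5.96 and 6.02 in gut Treg. Chst8, a sulfotransferase of N-acetylgalactosamine, read 9.14 on gut Tcon labelled control and 6.38 to 6.76 on the other 7 arrays. That array is the one with 18 of 18 pancreas markers above background, whose part in the Chst8 value was not tested.

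Of the 8 member genes with no probe above background on over 1 array, 7 were above background on 1 array only, and of these St6galnac3 had the highest signal, 426.3 units on spleen Treg labelled control. B3gnt3, Chst14 and Galnt15 were also above background on that array alone, at 332.1, 325.2 and 315.3 units. For Mgat5, 1 probe was above background on spleen Treg labelled K14 (338.1 units) and the other pair on gut Treg labelled K14 (354.5 and 319.6 units).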
